A study of Mus musculus with 6 samples.

Results

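Peaks of E2F1 chromatin immunoprecipitation followed by sequencing (ChIP-seq) were examined at 8 apoptosis genes that E2F1 is known to regulate or act through: Apaf1, Casp9, Casp8, Bcl2l11, Bbc3, Pmaip1, Trp53 and Trp73. The 8 were taken from 21900 protein-coding genes of the RefSeq annotation of GRCm38.p6, and a peak was assigned to a gene when it lay inside the gene's span or within 1000 bp of it. The cells were NIH/3T3, an established line of mouse embryonic fibroblasts, known from earlier work to have lost the Cdkn2a locus. One group carried a doxycycline-inducible E2F1 construct and the other a doxycycline-inducible empty vector (EV). Cells of both groups were starved in 0.25% serum for 48 hours and then given doxycycline for 12 hours. The treatment protocol gives a dose of 500 ng/ml for all samples, but another part of the record carries a different figure, so the dose is uncertain. Each group had 2 libraries with 1 deposited peak list each, and 2 input samples of the EV cells were not analysed here. The labels do not say whether the replicates came from separate cultures or whether a line was 1 clone, so the spread between libraries may be technical. The promoter that drives the construct, the species of the E2F1 sequence and the antibody are not given in the sources used here. All values of the E2F1 lists are those of cells given doxycycline to induce E2F1, and the E2F1 level reached was not measured in the data used here.

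E2F1 is a transcription factor that, released from RB family proteins, switches on genes for DNA replication, and at high level it can also drive cells into apoptosis. The death genes tied to it act at successive steps. The p53 family members p53 and p73 switch on death genes, BH3-only proteins such as Bim, Puma and Noxa disable the protective Bcl2 proteins at the mitochondrion, and released cytochrome c joins Apaf1 to activate caspase 9. Caspase 8 starts the parallel route from death receptors at the cell surface.

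The E2F1 lists held 7836 and 8027 peaks in replicates 1 and 2, with median fold enrichments of 9.19 and 11.3, and the EV lists held 70 and 358. Fold enrichment is the authors' ratio of read pileup to local background at the summit of a peak, and ranks below are by fold within a list. At the lowest background of a list, used here as the measure of depth in place of library totals, a site needed a pileup of 16 reads in either E2F1 library, 17 in EV replicate 1 and 13 in EV replicate 2 to pass the p-value of the deposited lists. The folds at those pileups were 5.97 and 5.95 in E2F1 replicates 1 and 2, 5.63 in EV replicate 1 and 6.43 in EV replicate 2. Sites with a higher background needed more reads. A gene without a peak therefore carried too little signal for that filter, which is not the same as none.

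Of the 8 genes, 6 had a peak in each E2F1 library (6 ± 0 genes, SD, n = 2) and 0 had one in either EV library (0 ± 0, n = 2). The 6 were Apaf1, Casp9, Casp8, Bcl2l11, Bbc3 and Trp53, and at all 6 a peak of replicate 1 overlapped a peak of replicate 2. Pmaip1 and Trp73 had no peak in any of the 4 lists. Among peaks at or above the median score of their list, 2 of the 8 genes, Bcl2l11 and Bbc3, kept such a pair. The share of all protein-coding genes under this filter is not given here, so that count has no background beside it. The groups did not overlap, and the exact two-sided permutation test over libraries gave p = 0.3333, the smallest value that 2 libraries against 2 can give, so this design cannot reach 0.05. Among all protein-coding genes, counted the same way, the E2F1 lists reached 36.9% (replicate 1) and 38.2% (replicate 2). The EV lists reached 0.0365% (replicate 1) and 0.406% (replicate 2). An overlapping pair of E2F1 peaks was found at 34.3% of protein-coding genes. The absence of EV peaks at the 8 genes was thus shared with nearly every other gene, and the 6 of 8 stood above the background share of the E2F1 lists, a difference that was not tested because the genes were chosen with earlier results of these data known.

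**Figure D1:**
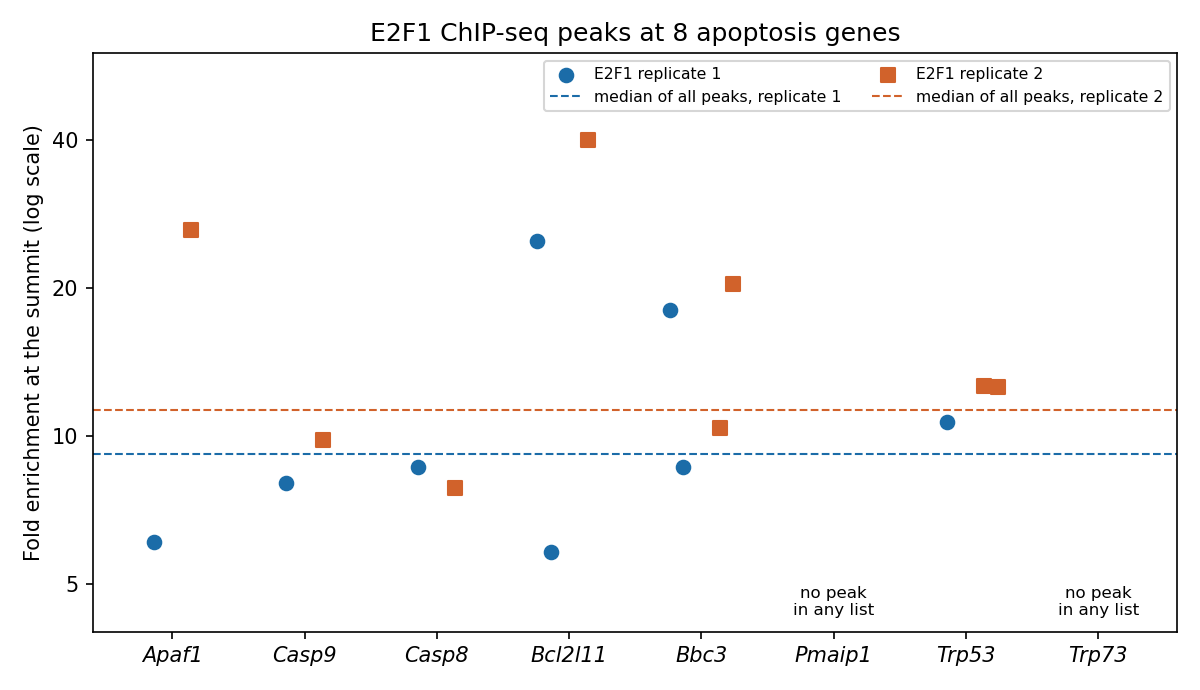
Fold enrichment at the summit (log axis) of every E2F1 peak inside or within 1000 bp of the 8 genes. Circles are E2F1 replicate 1, squares are replicate 2 and dashed lines are the median fold of all peaks in the same list. Bcl2l11 has the highest points at 24.9 and 39.9, and each Casp9 and Casp8 point lies below the median of its own list. Apaf1 lies below the median in replicate 1 and above it in replicate 2, and Pmaip1 and Trp73 have no peak. The EV lists have no peak at any of the 8 genes and are not drawn.

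Promoter sequences are shown for 5 genes because they carry the contrast described below: strong and moderate peaks at starts with few or no long E2F words, and no peak at a start with several. Each is a RefSeq window of GRCm38.p6, 250 bases before to 50 after a listed start, written 5′ to 3′ along the gene. Capitals mark the 6-letter forms of the E2F binding site, which are TCCCGC with TCGCGC as well as TGCCGC with TGGCGC, or their reverse complements. The windows are chr2:128127325-128127624 (plus strand) for the downstream start of Bcl2l11, chr7:16310011-16310310 (plus strand) for the middle start of Bbc3, chr10:91082694-91082993 (minus strand) for Apaf1, chr4:141793362-141793661 (plus strand) for Casp9 and chr4:154139826-154140125 (minus strand) for the upstream start of Trp73.
Bcl2l11, downstream start: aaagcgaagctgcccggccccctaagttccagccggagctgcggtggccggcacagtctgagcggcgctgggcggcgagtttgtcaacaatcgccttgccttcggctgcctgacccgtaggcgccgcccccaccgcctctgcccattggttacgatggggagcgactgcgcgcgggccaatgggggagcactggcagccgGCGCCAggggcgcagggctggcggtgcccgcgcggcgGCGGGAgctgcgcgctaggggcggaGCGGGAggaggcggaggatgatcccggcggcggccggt
Bbc3, middle start: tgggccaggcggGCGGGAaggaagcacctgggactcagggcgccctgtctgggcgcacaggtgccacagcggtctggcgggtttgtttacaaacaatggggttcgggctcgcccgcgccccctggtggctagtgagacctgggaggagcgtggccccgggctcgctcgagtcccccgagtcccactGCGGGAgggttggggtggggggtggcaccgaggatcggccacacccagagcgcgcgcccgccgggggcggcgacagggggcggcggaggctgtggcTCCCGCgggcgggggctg
Apaf1: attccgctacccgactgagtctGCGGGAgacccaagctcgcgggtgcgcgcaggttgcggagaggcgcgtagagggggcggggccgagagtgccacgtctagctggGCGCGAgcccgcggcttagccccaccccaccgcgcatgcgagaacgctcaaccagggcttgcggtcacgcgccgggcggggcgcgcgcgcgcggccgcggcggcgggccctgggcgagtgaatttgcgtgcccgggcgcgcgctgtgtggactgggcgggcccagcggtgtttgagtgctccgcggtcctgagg
Casp9: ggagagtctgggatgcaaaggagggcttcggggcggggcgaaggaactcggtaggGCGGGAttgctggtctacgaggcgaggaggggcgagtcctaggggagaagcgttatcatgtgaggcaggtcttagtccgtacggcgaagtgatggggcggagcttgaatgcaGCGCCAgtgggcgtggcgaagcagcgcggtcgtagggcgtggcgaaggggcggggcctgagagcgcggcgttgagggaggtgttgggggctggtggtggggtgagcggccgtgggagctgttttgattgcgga
Trp73, upstream start: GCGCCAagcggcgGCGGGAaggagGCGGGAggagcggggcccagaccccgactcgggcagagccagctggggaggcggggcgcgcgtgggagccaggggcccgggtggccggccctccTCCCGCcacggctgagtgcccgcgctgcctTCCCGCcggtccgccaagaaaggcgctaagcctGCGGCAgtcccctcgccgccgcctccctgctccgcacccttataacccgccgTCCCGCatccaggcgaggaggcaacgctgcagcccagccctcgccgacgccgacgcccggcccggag

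Bcl2l11, which encodes the BH3-only protein Bim, had the highest folds of the 8 genes. Its strongest peak had a fold of 24.9 in E2F1 replicate 1, rank 487 of 7836, and 39.9 in E2F1 replicate 2, rank 404 of 8027. The mean was 32.4 ± 10.6 (SD, n = 2), and in both libraries more than 9 in 10 peaks had a lower fold, 93.8% and 95.0% of the list. The pileups at the summit were 124 and 140 reads over local backgrounds of 4.02 and 2.54.

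RefSeq lists a pair of starts for Bcl2l11, at positions 128126038 and 128127575 of chromosome 2, and the gene spans 128126038 to 128162547. The strong peak lay at the downstream start in both libraries, with its summit 81 bp past that start in replicate 1 and 32 bp past it in replicate 2. Replicate 1 listed a further, weak peak at 128124932 to 128125934, with a fold of 5.82, rank 6545, and a summit 321 bp before the upstream start. Replicate 2 listed 1 interval of 2669 bp, 128125705 to 128128373, which covered both starts. It reached as far as the end of Acoxl, a neighbouring gene on the same strand whose span overlaps the upstream start of Bcl2l11, but the listed start of Acoxl lay 271410 bp from the upstream start of Bcl2l11. By the pair of folds, the genes most like Bcl2l11 over the 2 E2F1 libraries were Acoxl, which shares the peak, and Cramp1l and Jpt2, which share another peak on chromosome 17 with folds of 24.5 and 40.2, at a distance of 0.026 on the log2 scale.

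Bbc3, which encodes Puma, another BH3-only protein, had a pair of separate peaks in each E2F1 library. An arrangement of at least 2 peaks in each list with overlaps between the lists was found at 1.65% of protein-coding genes. Near the listed starts, the peak spanned 16308591 to 16311382 on chromosome 7 in replicate 1 and 16309314 to 16310717 in replicate 2. Its fold was 8.63 in replicate 1 and 10.4 in replicate 2 (mean 9.51 ± 1.23, SD, n = 2), close to the middle of each list at ranks 4303 and 4431. The summit fell on the same base in both libraries, position 16310271, which is 10 bp past the middle one of the 3 listed starts.

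The stronger Bbc3 peak lay deeper in the gene. It spanned 16311689 to 16314680 in replicate 1 and 16312031 to 16314528 in replicate 2, inside the gene span of 16308398 to 16318334. The fold was 18.0 in replicate 1, rank 1169, and 20.3 in replicate 2, rank 1760 (mean 19.2 ± 1.63, SD, n = 2). It was 2.09 times the fold of the peak at the starts in replicate 1 and 1.96 times in replicate 2. The summits were 16 bp apart and lay 3708 and 3724 bp past the nearest listed start. Whether this stretch is exon or intron was not analysed here, as the annotation used gives gene spans and starts alone.

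Both Bbc3 peaks of replicate 1 and the inner one of replicate 2 were broad, at 2792, 2992 and 2498 bp, and the Bcl2l11 interval of replicate 2 was the only other member peak of at least 2000 bp. Such widths were found for 8.08% of all peaks in replicate 1 and 2.89% in replicate 2. The remaining member peaks were between 457 and 1923 bp wide, beside list medians of 938 and 814 bp.

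Pmaip1, which encodes the BH3-only protein Noxa, spans 66458604 to 66465558 on chromosome 18 and had no peak. The nearest E2F1 peak was 456.0 kb away in replicate 1, with a fold of 5.14, and 166.6 kb away in replicate 2, with a fold of 6.99. Among the 3 BH3-only genes, Bcl2l11 and Bbc3 therefore had E2F1 peaks in both libraries and Pmaip1 in neither.

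Apaf1, the scaffold of the apoptosome, had 1 peak in each E2F1 library, and by the strongest peak of each gene the libraries differed more here than at any other member. The fold was 6.09 in replicate 1, rank 6232 of 7836, and 26.2 in replicate 2, rank 1117 of 8027 (mean 16.1 ± 14.2, SD, n = 2). The pileup was 38 reads over a local background of 5.40 in replicate 1 and 89 reads over 2.44 in replicate 2. Pileup was thus 2.34 times as high in replicate 2 and background 0.452 times as high, and together they gave a fold 4.29 times as high. Over all 7138 overlapping pairs of peaks the median ratio of folds was 1.26, and 0.364% of pairs had a ratio at least as high as that of Apaf1. The cause was not tested.

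The Apaf1 peaks lay at a start shared with another gene. They spanned 91082152 to 91083382 on chromosome 10 in replicate 1 and 91082036 to 91083033 in replicate 2, around the listed Apaf1 start at 91082743. The summit was 336 bp past that start in replicate 1 and 65 bp before it in replicate 2, 401 bp from one another, beside a median of 56 bp over all overlapping pairs. Ikbip, on the opposite strand, has its listed start 296 bp away at 91083039, and the replicate 2 summit lay between the starts of both genes. A peak in this stretch cannot be assigned to Apaf1 rather than Ikbip from position alone.

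Casp9, the caspase that Apaf1 activates, had 1 peak in each E2F1 library at its listed start, position 141793612 of chromosome 4. The peaks spanned 141793586 to 141794324 in replicate 1 and 141793525 to 141794034 in replicate 2. The fold was 8.03 in replicate 1, rank 4669, and 9.81 in replicate 2, rank 4667 (mean 8.92 ± 1.26, SD, n = 2). Summits were 185 and 164 bp past the start, 21 bp apart, and the pileups were 38 and 43 reads. Both folds were slightly under the median of their lists, at 0.874 and 0.868 times the median.

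Casp8, the caspase activated by death receptors, also had 1 moderate peak in each E2F1 library. The fold was 8.64 in replicate 1, rank 4301, and 7.82 in replicate 2, rank 5682 (mean 8.23 ± 0.573, SD, n = 2). The pileup of 25 reads in replicate 2 was the lowest of all member peaks, against the 16 reads needed at the lowest background. The peaks lay at 58795440 to 58796179 and 58794995 to 58795867 on chromosome 1, with summits 383 and 307 bp inside the upstream end of the gene span at 58795233. The single start listed for Casp8 in the promoter table, at 58802502, lay 6886 and 6962 bp further along the gene and had no peak.

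Trp53, which encodes p53, had a peak inside the gene in both E2F1 libraries. It spanned 69580409 to 69582100 on chromosome 11 in replicate 1 and 69580732 to 69581818 in replicate 2. The fold was 10.7 in replicate 1, rank 3146, and 12.6 in replicate 2, rank 3586 (mean 11.6 ± 1.34, SD, n = 2), each a little above the median of its list. The summits were 41 bp apart, and they lay 1244 and 1203 bp past the listed Trp53 start at 69580359, not at the start itself.

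Replicate 2 listed a second peak before Trp53, at 69579051 to 69579507, with a fold of 12.6 and rank 3538. Its summit was 1053 bp before the Trp53 start and 57 bp from one of the listed starts of Wrap53, the gene on the opposite strand, at 69579249. Replicate 1 listed no peak there. The other listed start of Wrap53, at 69580250, was 109 bp from that of Trp53, and the summit nearest to it was 1353 bp away in replicate 1 and 944 bp away in replicate 2.

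Trp73, which encodes p73 and is a textbook target of E2F1, had no peak inside its span of 154056249 to 154139875 on chromosome 4 or within 1000 bp of it. No E2F1 summit therefore lay at either listed start, the upstream one at 154139875 or the internal one at 154097173. The nearest E2F1 peak began 2406 bp outside the upstream end of the gene in replicate 1 and 2416 bp outside it in replicate 2. Its fold was 15.6 in replicate 1 and 8.63 in replicate 2, with summits 73 and 179 bp from the start of Wrap73, the next gene, which is transcribed away from Trp73. With a window of 2500 bp this peak was counted for Trp73, and 7 of the 8 genes had a peak in each E2F1 library. The share of all protein-coding genes at 2500 bp is not given here, and the shares above hold for 1000 bp alone.

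**Figure D2:**
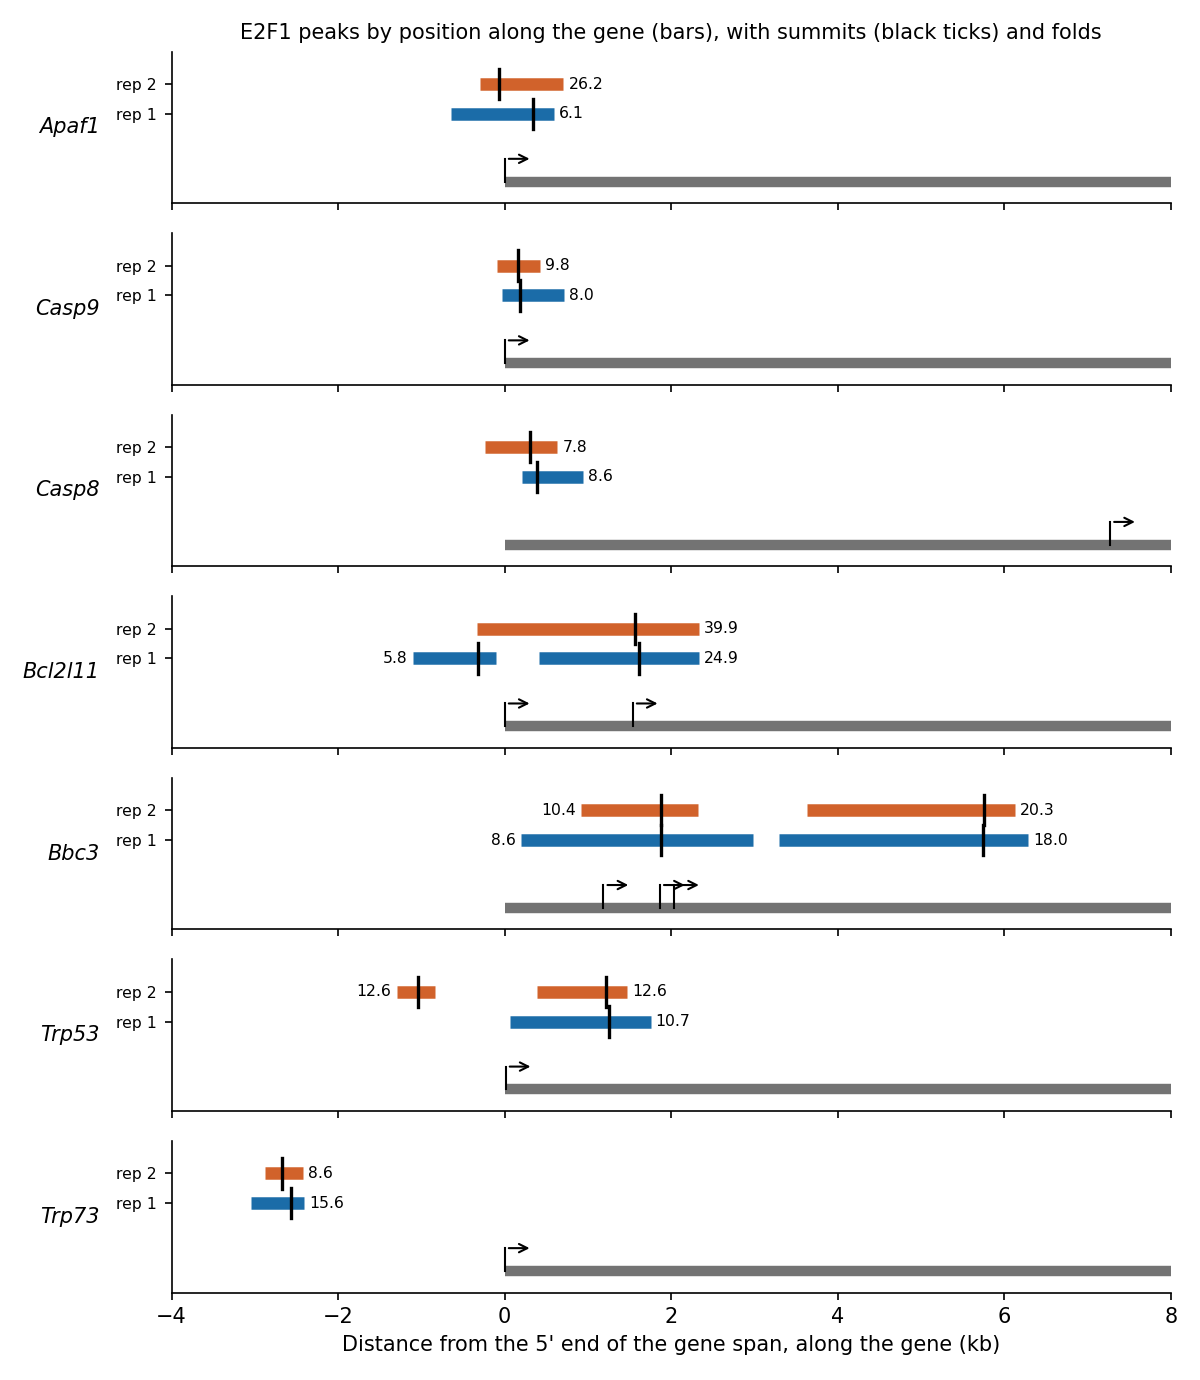
Position of E2F1 peaks along 7 of the 8 genes, as distance in kb from the 5′ end of the gene span in the direction of transcription (grey bar: gene span, cut at 8 kb; bent arrows: listed starts; coloured bars: peaks of replicate 1, below, and replicate 2, above; black ticks: summits; numbers: fold enrichment). Summits sit at a start for Casp9, Apaf1 and the downstream start of Bcl2l11, on and beyond the starts for Bbc3 and past the start for Trp53, while the nearest peak of Trp73 lies outside the gene beyond 2.4 kb. Pmaip1 has no peak within this range.

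In all, each E2F1 library listed 8 peaks at the members. Summits lay within 1000 bp of a listed start of any gene for 5 of 8 in replicate 1 and 5 of 8 in replicate 2 (62.5% in each), beside 74.7% and 74.6% of all peaks in these lists. In the EV lists, which had no member peak, the share over all peaks was 2.86% in replicate 1 and 2.51% in replicate 2. The peaks outside that distance were the same in both libraries: the Casp8 peak, the inner Bbc3 peak and the Trp53 peak inside the gene. In each library 4 of the 8 peaks also reached the widened span of another protein-coding gene, namely Ikbip, Acoxl or Wrap53. The share of all peaks that reach more than 1 gene is not given here, so this count is not a trait of the members. The nearest EV peak to any member was 2220 kb away, at Bbc3 in EV replicate 2.

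E2F words were searched at the listed starts of these genes. The words, on both strands, were TTCCCGC with TTCGCGC as well as TTGCCGC with TTGGCGC, the same with 1 more T in front, and the 6-letter forms shown in capitals above. The 8-letter form was found at 0 of 11 listed starts of the 7 genes in the promoter table, where 2.26% of all 32851 windows hold it. The 7-letter form was found at 2 of 7 genes, Bbc3 and Trp73, beside 9.57% of all windows and 10.9% of all genes in the table. The 6-letter form was found at 5 genes, Apaf1, Casp9, Bcl2l11, Bbc3 and Trp73, at 8 of their starts, beside 36.3% of all windows and 39.0% of all genes in the table. Words can overlap: each longer word holds a shorter one.

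Among the member starts, those of Apaf1, Casp9 and Bbc3 and the downstream one of Bcl2l11 each held 1 to 3 words of 6 letters. All of these had a summit of both E2F1 lists within 1000 bp. The starts of Casp8 and Trp53 and the internal start of Trp73 held 0 and lacked such summits. The upstream starts of Bcl2l11, with 1 word, and Trp73 also lacked them. The upstream start of Trp73 and the downstream start of Bcl2l11 stood opposite in word number and peak. The upstream Trp73 window held 3 words of 7 letters, the closest to the start 103 bases before it, and 7 of 6 letters, with no E2F1 peak in either library. The downstream Bcl2l11 window held 0 words of 7 letters and 3 of 6 letters, at the strongest peak of the 8 genes. Windows with at least as many 6-letter words as that of Trp73 were rare, 44 of 32851, and a summit of each E2F1 list lay within 1000 bp of 32 of them (72.7%), with 12 lacking one. Where no 6-letter word was found the share was 8.83%. A match is a description of the letters, and draws nothing about binding at a given base.

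Base composition at the starts moved with the peaks as well. The starts with a summit of both E2F1 lists within 1000 bp had a median GC content of 65% over all genes, against 50% at the other starts. Among the members, the starts of Apaf1, Casp9 and Bbc3 and the downstream start of Bcl2l11 had 66% to 78% GC and a summit of both lists within that distance. The listed starts of Casp8, at 42%, and Trp53, at 52.7%, and the internal start of Trp73, at 57.7%, did not. Among the GC-rich starts 2 also did not: the upstream start of Bcl2l11, at 71%, which had a summit of replicate 1 alone, and the upstream start of Trp73, at 77.7%, which had none. The upstream Trp73 window had a ratio of observed to expected CpG of 0.864. Of all windows with a CpG ratio at least that high, 71.0% had a summit of both lists nearby, beside 22.7% of all windows. For windows with at least as many 6-letter words as that of Trp73 the share was 72.7%, and word number and CpG ratio were not separated. The part of base composition in the peaks was not tested.

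Other genes of apoptosis, 45 in number and grouped by role, were counted in the same way. A peak shared by both E2F1 libraries was found at 30 of 45 (66.7%), beside 34.3% of all protein-coding genes, and 0 of the 45 had a peak in an EV list. These genes, like the members, were chosen with earlier results of these data known, so the difference between the shares was not tested. The mean fold of the strongest shared peak had a median of 11.9 over the 30 genes, beside 13.9 over the 6 members and 11.8 over all 7521 protein-coding genes with such a peak. By this measure the other apoptosis genes with a peak lay close to bound genes in general.

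Genes that promote death and genes that oppose it both had peaks. Among the BH3-only and effector genes of the Bcl2 family 4 of 8 had a shared peak. The highest was Bok, an effector related to Bax, at 10.1 and 26.4 in replicates 1 and 2, followed by Bad at 12.4 and 6.996, a peak that also reached Gpr137, and by Bax itself at 7.67 and 4.88. Bak1, Bik and Hrk had no E2F1 peak, and Bid had one in replicate 1 alone, at 4.10. Of the protective genes, 3 of 4 had a shared peak, with folds of 20.1 and 34.998 at Bcl2, 21.8 and 30.8 at Bcl2l1, which encodes Bcl-xL, and 10.8 and 16.5 at Mcl1. The protective genes Bcl2 and Bcl2l1 were thus above every BH3-only or effector gene of that list in both libraries, and below the downstream peak of Bcl2l11. The other protective genes did not share this: Mcl1 was below Bad in replicate 1 and below Bok in replicate 2, and Bcl2l2 had no E2F1 peak.

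Among the caspases and the other apoptosome and DNA fragmentation genes, 3 of 7 had a shared peak. The highest was at Casp2, an initiator caspase, at 20.4 and 22.3, under a peak that also reached Tmem139. Both folds were higher than those of Casp8 and Casp9 in the same library. Cycs, which encodes cytochrome c, followed at 7.68 and 11.5, then Dffb, which encodes a nuclease that cuts DNA in dying cells, at 5.01 and 6.06. Casp1, an inflammatory caspase, had no E2F1 peak, and neither had Casp6, Casp12 and Dffa.

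Of the death receptors and their adaptors 6 of 8 had a shared peak. Of the 3 receptor genes, Tnfrsf1a had one, at 8.27 and 8.09, and Fas and Tnfrsf10b had none. The highest were the adaptors Traf2, at 21.6 and 29.7, Ripk1, at 17.3 and 13.4 under a peak that also reached Serpinb6a, and Fadd, at 9.59 and 13.2. Of the inhibitors of apoptosis and their antagonists 5 of 7 had one, led by Birc5, which encodes survivin and also acts in mitosis, at 17.8 and 33.4, then Xiap at 16.1 and 23.8 and Birc6 at 9.84 and 17.8. Birc3 had none, and Diablo had one in replicate 2 alone, at 8.42.

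Of the p53 family and its regulators 9 of 11 had a shared peak. The highest was at Siva1, a p53 and E2F1 responsive death gene, at 20.6 and 20.7, then Cdkn1a, the gene of the cell cycle inhibitor p21, at 7.57 and 31.6, and Trp53inp1 at 9.56 and 18.2. The replicates differed at Cdkn1a about as widely as at Apaf1. Trp63, the third p53 family gene, had no E2F1 peak, like Trp73 and unlike Trp53. Cdkn2a, which encodes the p53 activator Arf, had none. Earlier work reports this locus as lost in NIH/3T3, and its presence in these libraries was not tested. The gene stays in the counts of 11 and 45 genes.

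**Figure D3:**
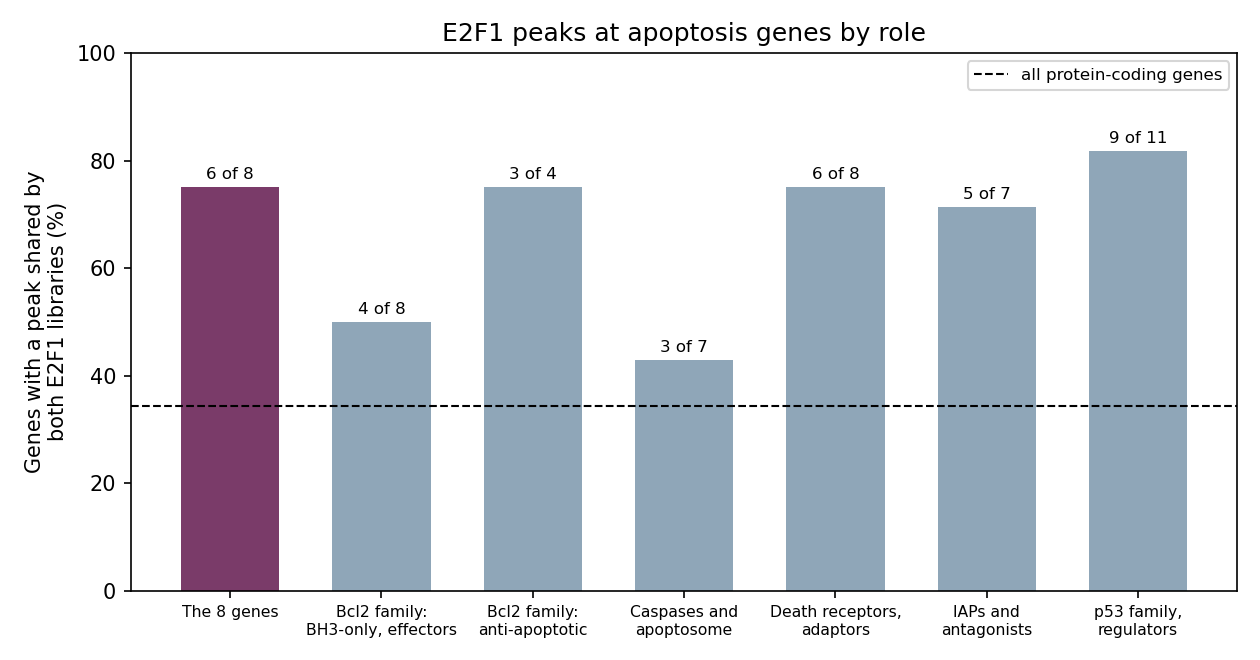
Percentage of genes with a peak shared by both E2F1 libraries for the 8 genes and for the 45 other apoptosis genes by role (IAPs, inhibitors of apoptosis proteins), with the number of genes above each bar and the share of all protein-coding genes as a dashed line at 34.3%. Every bar lies above the line, from 3 of 7 caspase and apoptosome genes to 9 of 11 genes of the p53 family and its regulators. Roles hold only 4 to 11 genes, and all lists were chosen with earlier results of these data known. The differences from the line were not tested.

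**Figure D4:**
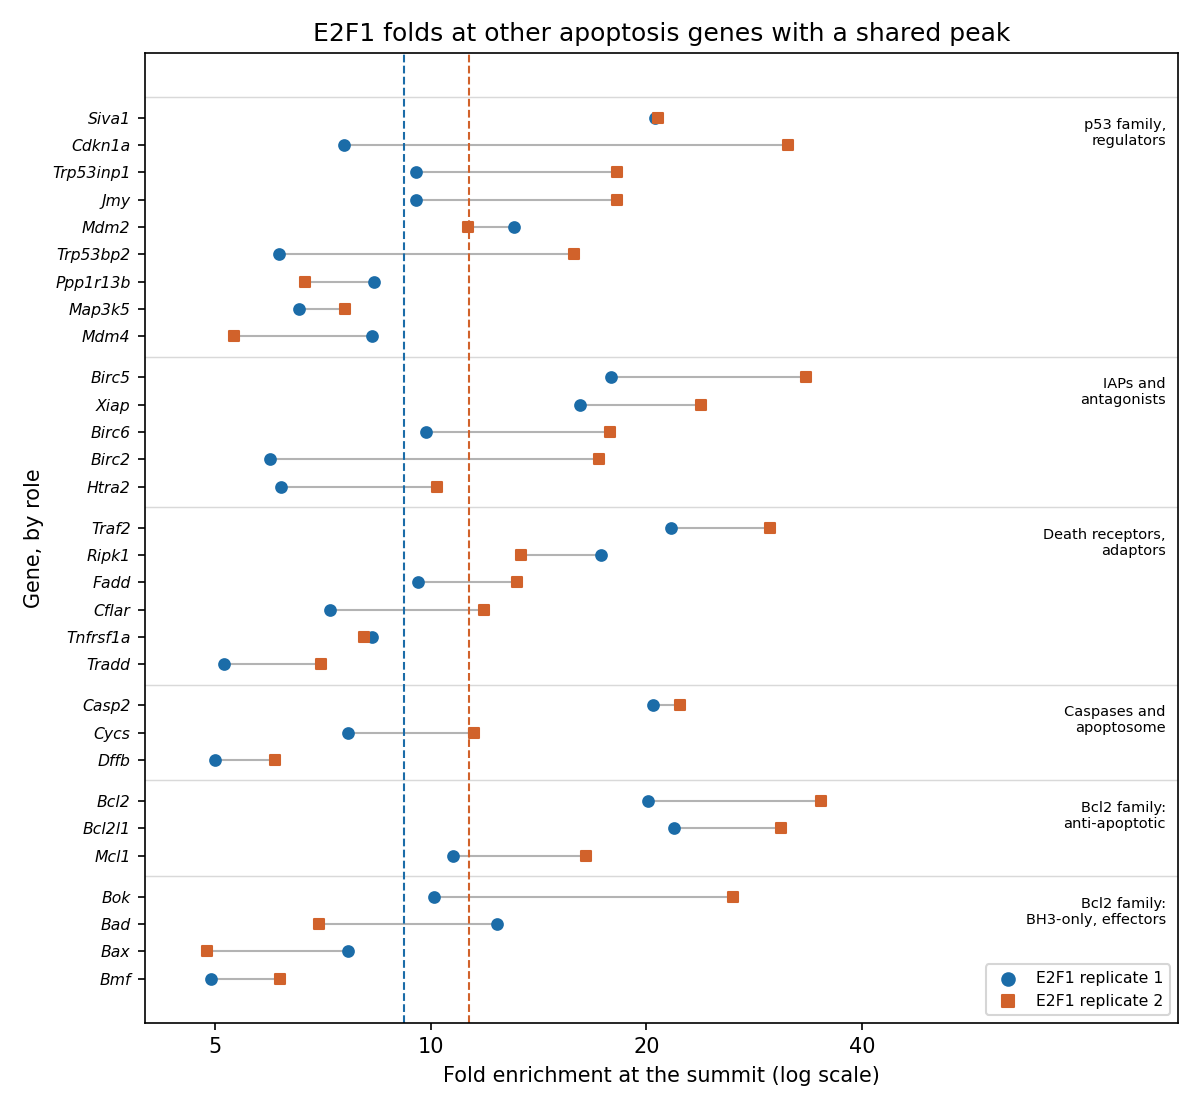
Fold enrichment (log axis) of the strongest shared peak at the 30 other apoptosis genes that had one, grouped by role and ordered by mean fold within a role. Circles are E2F1 replicate 1, squares replicate 2, grey lines join the libraries and dashed lines are the list medians. Bcl2 has the highest point, at 34.998 in replicate 2, and the widest gap between the libraries on this axis is at Cdkn1a, from 7.57 to 31.6.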

How the data were processed

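E2F1 ChIP-seq peak lists of 4 NIH/3T3 libraries, 2 E2F1 and 2 EV, were used, with groups and replicate numbers from the sample titles. The submitters' processing notes name FastQC, Trimmomatic, Bowtie2, MACS2, ChIPseeker and build mm10, without versions, roles or settings. Each list was taken as called on 1 library. The deposited columns are a fold enrichment ratio, a score that is 10 times the −log10 q-value rounded down for at least 99.8% of peaks, the −log10 p-value and the −log10 q-value. The smallest deposited −log10 p was just above 10 in each list, so weaker sites are missing.

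Gene spans, starts and promoter windows came from RefSeq for GRCm38.p6. Symbols of all 8 members and 45 other genes were found, and the promoter table held 7 of the 8 members. A shared peak meant an overlap of at least 1 bp between a peak of each E2F1 list, both touching the widened gene span. Pileup and background were solved from fold and p, with fold as pileup plus 1 over background plus 1 and p as a Poisson upper tail. Whole pileups matched within 5% of a step for at least 95.7% of peaks in each list. The counting and the solution were tested on simulated data. Python 3.11.15, numpy 2.4.6, pandas 2.3.3 and scipy 1.17.1 were used.

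A pair of further genes of the lists is not reported here and enters no count over them. Members and gene lists were chosen with earlier results of these data known. Named genes were all members, their neighbours under a shared peak, up to 3 genes per role by mean fold, genes with an EV peak, and the 3 genes nearest to the highest member in fold. Tnfrsf1a, genes without a shared peak and the widest gaps between replicates were named after their values were seen.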

Additional observations from a re-analysis of the deposited data

How the results depend on the processing

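Over 10 results, the 49 alternatives computed gave 44 that kept their direction or stayed within the spread and 5 that did not. A mean of 2 libraries always stays within their spread when 1 is left out, so those alternatives of the folds could not differ. The alternatives with the best-scoring peak repeated the main fold means. The 44 is therefore no measure of how stable the folds are. The number of members with a peak in the E2F1 libraries exceeded that in the EV libraries by 6 genes in each of the fits without one library, by 7 with a window of 2500 bp and by 3 with peaks at or above the median score. With the replicate block the difference was again 6, and the exact test that swaps groups within a replicate number gave p = 0.5, its minimum for 2 pairs. Whether the replicate numbers pair the libraries cannot be shown from 1 count per library. With peaks at or above the median score, 2 members, Bcl2l11 and Bbc3, and 16 of the 45 other genes kept a shared peak, since weaker peaks were removed by construction. With peak centres within 200 bp, 3 members, Casp9, Bbc3 and Trp53, and 23 of the 45 other genes kept one. With a reciprocal overlap of at least 50%, 5 of the 6 members did, and Casp8 did not, as the overlap covered 49.0% of its replicate 2 peak. Shares of all protein-coding genes are given for the main setting alone, so the counts under other settings have no background beside them. The E2F word was found at 0 members in its 8-letter form, at 2 in its 7-letter form and at 5 in its 6-letter form, which was added after the data were examined. Fold means of 2 libraries rest on each: without replicate 1 or 2, that of Apaf1 was 26.2 or 6.09 and that of Bcl2l11 was 39.9 or 24.9. Sites weaker than the p-value filter, at a −log10 of 10, enter no count above. The lowest local background was 1.18 in EV replicate 2, against 1.85 to 2.20 in the other libraries. It sets the smallest pileup that could pass in each list, and sites with a higher background needed more reads.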
